A study of Homo sapiens with 6 samples.

Results

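Exon-class m7G peaks in protein-coding genes are stretches of RNA that were enriched by an antibody against 7-methylguanosine (m7G) and that the deposited peak annotation placed in class exon. They were chosen by that class and by the protein-coding biotype, with no measured value used. The rule gave 855 of 9450 peaks, which is 10.0% of the 8528 peaks in protein-coding genes. Each gene in the table has 1 listed peak, so a member is both a peak and a gene. The comparison classes in protein-coding genes were 4671 peaks of the 5′ untranslated region (5′ UTR) and 2775 peaks of the coding sequence. What separates an exon peak from a UTR or coding-sequence peak was not given in the sources used here, and the class was used as deposited.

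The study used DLD1, an established human colorectal cancer cell line, and held 6 libraries with 1 library in each group. Stable METTL1 knockdown cells gave the input library sh2-Input and the m7G immunoprecipitate (IP) sh2-IP, and control cells gave sh-NT-Input and sh-NT-IP. RNA-seq of DLD1 of wild-type genotype gave S-CAFs-w13, from a co-culture with S-CAFs (by the series title, senescent cancer-associated fibroblasts), and DLD1-W13CM, read here as the CAF co-culture of the protocol although its title does not name one. The series' design text speaks of replications of the knockdown and control cells that the labels do not show, so whether a library pools cultures was not given. The knockdown rests on the single construct sh2, and no difference below has a replicate check.

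The m7G base is best known as the cap at the first nucleotide of an mRNA, where it protects the transcript and recruits the translation machinery. METTL1, together with its partner WDR4, places m7G inside tRNAs and has also been described as a writer of internal m7G in mRNA. An antibody against m7G can therefore pull down fragments from the capped end and fragments with an internal site. Whether caps were removed before the pull-down was not given in the sources used here.

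Because the members' enrichment differed with the distance of the peak from the gene start, 9 gene starts are shown for members with a peak there. Each line gives 30 bases of the gene's strand from RefSeq (GRCh38.p14), 10 before and 20 from the annotated start, so that the start is the eleventh base. Capitals mark the first C that is followed by 4 bases of C or T, as in the 5′ terminal oligopyrimidine motif known from ribosomal protein mRNAs, looked for from 5 bases before to 10 after the start. The first 4 are ribosomal protein genes, UQCRH had a called m7G change, POLR3E and HAX1 had the highest enrichments, and E2F4 and CNOT3 had called changes in opposite directions.
RPLP0: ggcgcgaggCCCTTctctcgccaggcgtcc
RPS12: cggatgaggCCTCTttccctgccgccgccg
RPL36: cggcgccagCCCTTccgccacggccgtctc
RPL35: cgcctaCTTCCtctttccctcggagcgggc
UQCRH: cttacaagtCCTTCttgatcctgaactggg
POLR3E: gctccCCCCCacgtgtccgccggagtttct
HAX1: agcgtgggctgacgcctcgctcaatttctc
E2F4: cccggcggccaggaacggaagcggaagtgg
CNOT3: cgccgccgccatcttggaccgggcccggtc
The windows lie at chr12:120201092-120201121 (minus strand, RPLP0), chr6:132814559-132814588 (plus, RPS12), chr19:5690285-5690314 (plus, RPL36), chr9:124861938-124861967 (minus, RPL35) and chr1:46303688-46303717 (plus, UQCRH). Those of the others are chr16:22297399-22297428 (plus, POLR3E), chr1:154272619-154272648 (plus, HAX1), chr16:67192145-67192174 (plus, E2F4) and chr19:54137752-54137781 (plus, CNOT3).

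The motif was present at 11 of 15 starts (73.3%) of ribosomal protein genes with an exon peak within 250 nt of the start and at 75 of 337 (22.3%) of other genes with such a peak. Across all 35116 promoters of the table it was present in 21.1%, and on the reverse strand in 16.3%. Its share was 21.5% of 3067 starts with a 5′ UTR peak nearby and 22.3% of 1343 with a coding-sequence peak nearby. Outside the ribosomal protein genes, exon-class starts thus held it about as often as promoters in general. A match is only a run of letters in the window, and 715 of the 855 members were found in the promoter table.

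A smaller share of exon-class peaks than of 5′ UTR peaks sat at the gene start. The 5′ end of the peak lay within 250 nt of the RefSeq gene start for 403 of 854 members (47.2%), compared with 73.2% of 5′ UTR peaks and 53.8% of coding-sequence peaks. At the other extreme, 326 members (38.2%) began over 1000 nt downstream of the start, compared with 11.2% and 35.5%. The remaining 125 comprised 82 peaks 250 to 1000 nt downstream, 23 the same distance upstream and 20 over 1000 nt upstream. In position the exon class lay closer to the coding-sequence class than to the 5′ UTR class. Measured from the nearest start that RefSeq lists for the gene, 50.8% of members were within 250 nt, against 81.6% of 5′ UTR and 59.1% of coding-sequence peaks. Promoter starts were listed for 715 of 854 members, 3851 of 4661 5′ UTR peaks and 2295 of 2755 coding-sequence peaks. The others kept the outermost gene start.

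**Figure D1:**
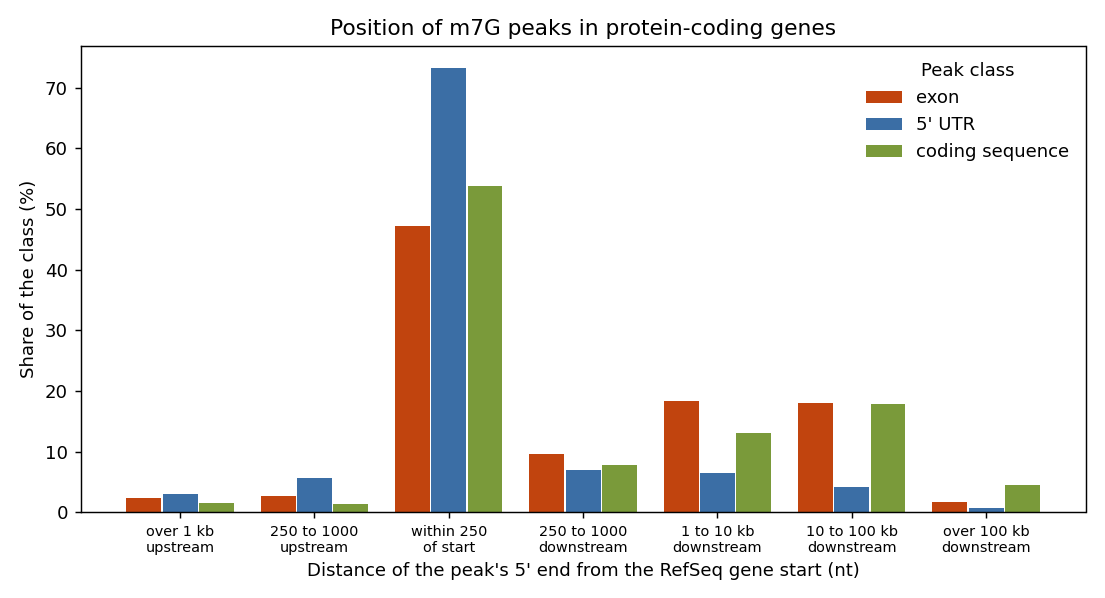
Share of the peaks of each class (percent) by distance of the peak's 5′ end from the RefSeq gene start. The bar within 250 nt reaches 47.2% for exon, 73.2% for 5′ UTR and 53.8% for coding-sequence peaks, and exon peaks hold a second group between 1 and 100 kb downstream.

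Genes with an exon-class peak were more highly expressed than those with a 5′ UTR peak. The median control input was 10.1 FPKM (fragments scaled for gene length and sequencing depth; quartiles 4.27 and 21.9) for the exon class, 6.89 FPKM for 5′ UTR and 9.38 FPKM for coding sequence. The order was the same in the knockdown input, at 10.0, 6.90 and 9.5 FPKM. In the control, the intervals of the medians (95%, from the order of the peaks) were 9.02 to 10.8 FPKM for exon and 6.61 to 7.16 FPKM for 5′ UTR. That for coding sequence was 9.01 to 9.86 FPKM. These intervals describe the listed genes of 1 library, and genes are not replicates. Members ranged from 0.0112 to 1519 FPKM, and 794 of 855 had a mean input of at least 1 FPKM.

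The upper end held genes of the cytoskeleton and the ribosome. A control input of at least 100 FPKM was found for 44 members (5.15%), 83 5′ UTR genes (1.78%) and 103 coding-sequence genes (3.71%). RPS2, a protein of the small ribosomal subunit, stood at 1519 FPKM in the control and 1464 FPKM in the knockdown. ACTB, cytoplasmic beta-actin, stood at 1499 and 1789 FPKM. The epithelial keratins KRT8 and KRT18, which pair to form intermediate filaments, stood at 1178 and 1399 FPKM and at 974 and 1193 FPKM. PTMA, which encodes the small acidic protein prothymosin alpha, stood at 1102 and 1085 FPKM. Reads of these genes and of ribosomal protein genes can be shared with processed pseudogenes, and how the authors' counting treated such reads was not given in the sources used here.

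Members came from short genes. The median RefSeq gene length was 13616 nt for exon, 35743 nt for 5′ UTR and 28619 nt for coding-sequence peaks. The peak itself was a single continuous block for 452 members (52.9%), against 36.9% of 5′ UTR and 34.6% of coding-sequence peaks. Without its gaps, the median exon peak covered 270 nt, compared with 300 nt for 5′ UTR and 270 nt for coding sequence. From its first to its last base on the genome it spanned a median of 413 nt, compared with 888 and 895 nt. Exon and coding-sequence peaks thus covered equal numbers of bases at the median, and the shorter span went with fewer gaps.

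Of the 5 widest members by covered bases, 4 began within 250 nt of the gene start, and FAU began further upstream. ATXN2L, a relative of the ataxin-2 RNA-binding protein, had 1021 nt in 2 blocks and a fold enrichment of 62.9. GABPB1, a subunit of the GA-binding transcription factor, had 991 nt, and RPL36 and FAU, both ribosomal, had 957 and 953 nt in a single block. ATP5I, a subunit of mitochondrial ATP synthase, had 881 nt in 4 blocks. The smallest width, 120 nt, was shared by 16 members with a mean input of at least 1 FPKM. Of these, 11 lay over 1000 nt downstream, 4 within 250 nt of the start and 1 elsewhere, and their enrichment ran from 1.48 to 14.4 with a median of 2.44. The first 5 by symbol were ATP13A1, CDK5RAP3, CHD8, CYHR1 and FAM193B.

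Fold enrichment, the authors' value for each peak, was lower in the exon class than in the 5′ UTR class. Its median was 9.43 (quartiles 3.77 and 17.9) for exon peaks, 14.9 for 5′ UTR and 9.93 for coding sequence, with intervals of 8.63 to 10.2, 14.7 to 15.4 and 9.43 to 10.4. An enrichment of at least 10 was listed for 405 members (47.4%), 72.3% of 5′ UTR peaks and 49.3% of coding-sequence peaks. Under 3-fold were 175 members (20.5%), 1.69% of 5′ UTR peaks and 21.4% of coding-sequence peaks. The classes thus differed mainly in a tail of weak peaks, which the 5′ UTR class nearly lacked.

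Members near the start were mostly more enriched than those downstream, though the groups overlapped. Within 250 nt of the start the median fold enrichment was 14.5 for exon, 15.9 for 5′ UTR and 14.5 for coding sequence, so the exon class was there about as enriched as the other classes. Over 1000 nt downstream it was 3.22 for exon (interval 2.85 to 3.57), 11.4 for 5′ UTR and 2.87 for coding sequence. Of the 326 members over 1000 nt downstream, 155 (47.5%) were under 3-fold, compared with 2 of the 403 near the start. The downstream members covered a median of 211 nt against 300 nt near the start. A single block was found for 62.3% of these downstream members, 33.4% of downstream coding-sequence peaks and 32.7% of downstream 5′ UTR peaks. In a second measure, the nearest listed start replaced the outermost one wherever the gene had promoter starts listed. The medians near and far were then 14.2 and 2.93 for exon peaks, 15.5 and 8.31 for 5′ UTR peaks and 14.4 and 2.65 for coding-sequence peaks. The share of 5′ UTR peaks over 1000 nt downstream then fell from 11.2% to 4.23%.

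**Figure D2:**
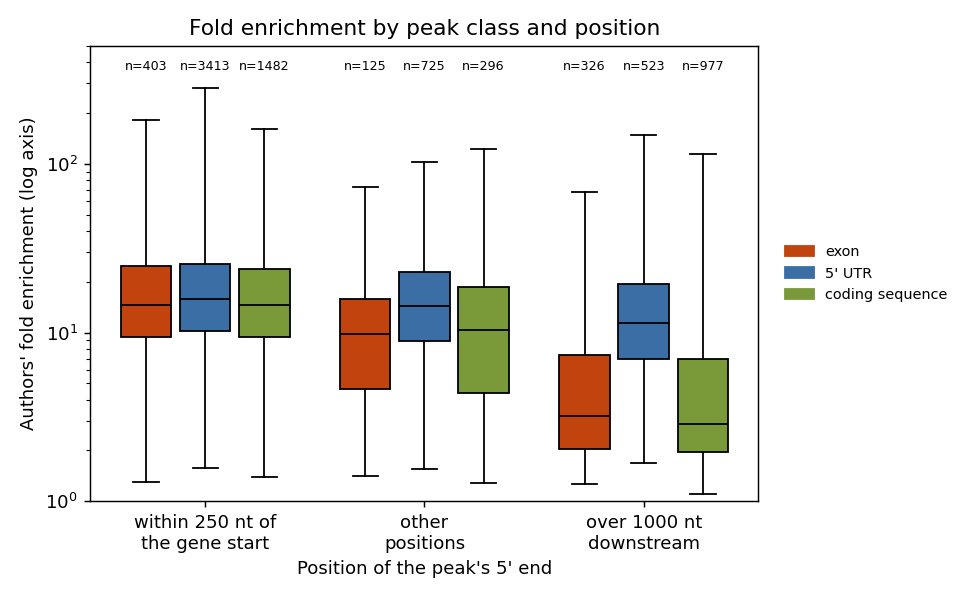
The authors' fold enrichment (log axis) by position of the peak's 5′ end, with boxes from the first to the third quartile, a line at the median and whiskers from the lowest to the highest peak. Near the start the medians of the 3 classes lie between 14.5 and 15.9, while over 1000 nt downstream exon and coding-sequence peaks have medians of 3.22 and 2.87 and 5′ UTR peaks have 11.4.

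The 10 highest enrichments among members with a mean input of at least 1 FPKM all began between 88 nt upstream and 116 nt downstream of the start. POLR3E, a subunit of RNA polymerase III, had 182-fold, with 13.6 FPKM in the control and 12.4 FPKM in the knockdown (peak at chr16:22297375-22302522, 3 blocks). HAX1, a mitochondrial anti-apoptotic protein, had 153-fold at 59.1 and 42.7 FPKM. SCARB2, a lysosomal membrane protein, had 137-fold, and IFI27L1 and the superoxide dismutase SOD1 had 125-fold each. The others were the receptor-like kinase PTK7 (122-fold), PPCS of coenzyme A synthesis (104-fold), NDUFAF8 of complex I assembly (99.8-fold), prohibitin PHB2 (92.3-fold) and the complement regulator CD46 (85.1-fold). Their control input ran from 2.49 FPKM for IFI27L1 to 124 FPKM for SOD1, so high enrichment was not tied to one level of expression.

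Among the listed peaks, median enrichment moved differently with expression at the start and downstream. When all protein-coding genes with a peak were divided into 4 equal bins by control input, with bounds at 3.47, 7.94 and 17.7 FPKM, 174, 195, 226 and 260 members fell into them from lowest to highest. The median enrichment of members near the start was 12.6, 13.2, 19.6 and 15.2 from the lowest to the highest bin. That of members over 1000 nt downstream was 7.45, 3.39, 3.01 and 2.11, and coding-sequence peaks there had 6.95, 3.70, 2.65 and 2.0. Downstream 5′ UTR peaks had 10.9, 11.9, 11.8 and 11.4. The lowest of these exon medians was thus that of listed downstream peaks in the highest bin. Only peaks that the authors listed have a value, and how far listing itself depends on read number was not tested. The low enrichment of the class relative to 5′ UTR peaks was present in every bin, at 10.9, 8.84, 8.36 and 8.83 against 12.6, 15.4, 16.6 and 16.4.

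**Figure D3:**
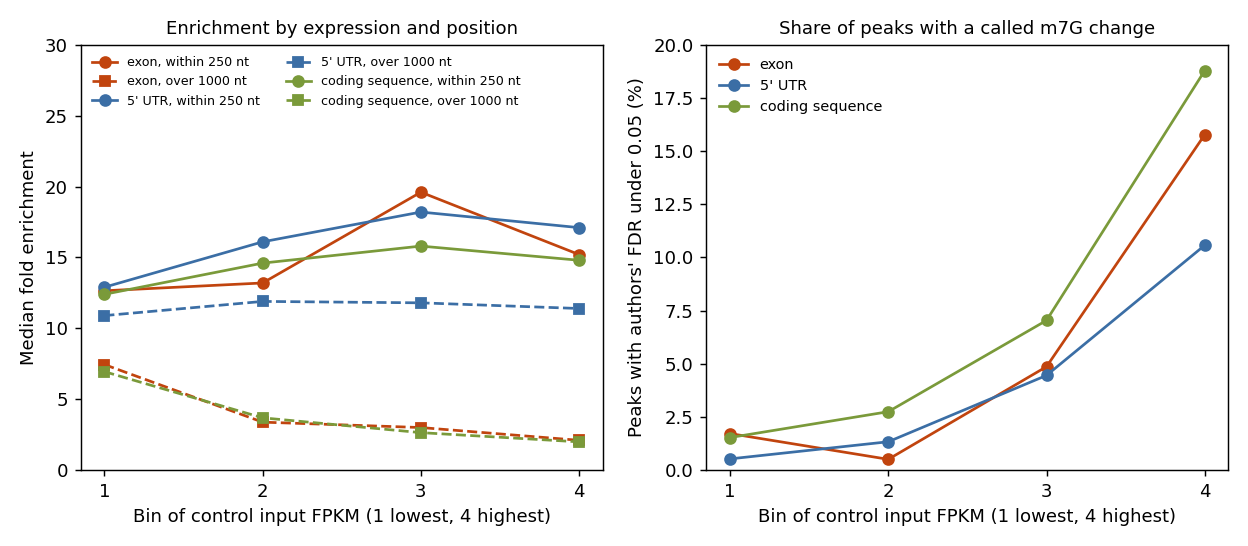
Left, median fold enrichment by bin of control input, each with 1 in 4 genes, for peaks within 250 nt of the start (solid) and over 1000 nt downstream (dashed); right, percent of each class with the authors' false discovery rate (FDR) under 0.05. Downstream exon peaks fall from 7.45 to 2.11 across the bins, and the share of called exon peaks reaches 15.8% in the highest bin.

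Many listed enrichments moved in equal steps. Between 5- and 10-fold, 81 of 177 members (45.8%) lay within 0.006 of a whole multiple of 0.4966, as did 51.6% of 5′ UTR and 41.5% of coding-sequence peaks. That tolerance covers 2.42% of a step. The step was picked as the one with the most matches among these same protein-coding peaks, so its match is a description and no test. The median control input of the members on a step was 3.58 FPKM, against 10.5 FPKM for those off it. The weakly expressed members in that range thus took few distinct enrichment values. The origin of the step was not tested.

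The METTL1 transcript itself, which carries a 5′ UTR peak and is no member, stood at 5.80 FPKM in the control input and 3.28 FPKM in the knockdown input. That is 1.77-fold lower (1.37 to 2.29), with at least 159 and 100 reads behind it. Such intervals are exact 95% counting intervals for the smallest whole reads that the ratio allows. They are too wide where the true reads are a multiple of these, and they cover counting error only. WDR4, the partner of METTL1, is a member whose peak began 13787 nt from the outermost start and 328 nt from the nearest listed start, and it stood at 13 FPKM and 15.6 FPKM, 1.20-fold higher (1.05 to 1.37). Its fold enrichment was 4.03, and the authors' deposited table gave its m7G change as 1.40 on the log2 scale with an FDR of 0.513, which did not pass.

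In the authors' deposited table, 56 members (6.55%, exact interval 4.99 to 8.42) had a change in m7G between knockdown and control at FDR under 0.05, against 5.25% of all 9450 peaks. The numerator of that change is not stated and was read as knockdown over control. So read, 38 members were higher, where 3.07% of all peaks were, and 18 were lower, where 2.18% were. These FDRs compare 1 pair of cultures and do not speak for the conditions. The authors' deposited table had a called change for 3.83% of 5′ UTR and 8.32% of coding-sequence peaks, so the exon class lay between them. The median log2 change was 0.02 for exon, 0.02 for 5′ UTR and 0.01 for coding-sequence peaks in the same deposited table of the authors, and 48.4% of members were below 0. The members did not shift to one side as a class.

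Calls followed expression. In the bins of control input from lowest to highest, the authors' deposited table called 1.72, 0.513, 4.87 and 15.8% of exon peaks, against 0.534, 1.34, 4.46 and 10.6% of 5′ UTR and 1.54, 2.75, 7.04 and 18.8% of coding-sequence peaks. Called members had a median control input of 41.8 FPKM, and the others 9.24 FPKM. By the authors' deposited table, 17 of the 56 called members changed at least 2-fold, 7 higher and 10 lower, while 21 changed by under 0.5 on the log2 scale. The 17 had a median control input of 14.4 FPKM and the 21 one of 84.2 FPKM. Among the 799 members that were not called, the same table of the authors, as deposited, had 163 with a change of at least 2-fold, so large listed changes were frequent without a call.

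**Figure D4:**
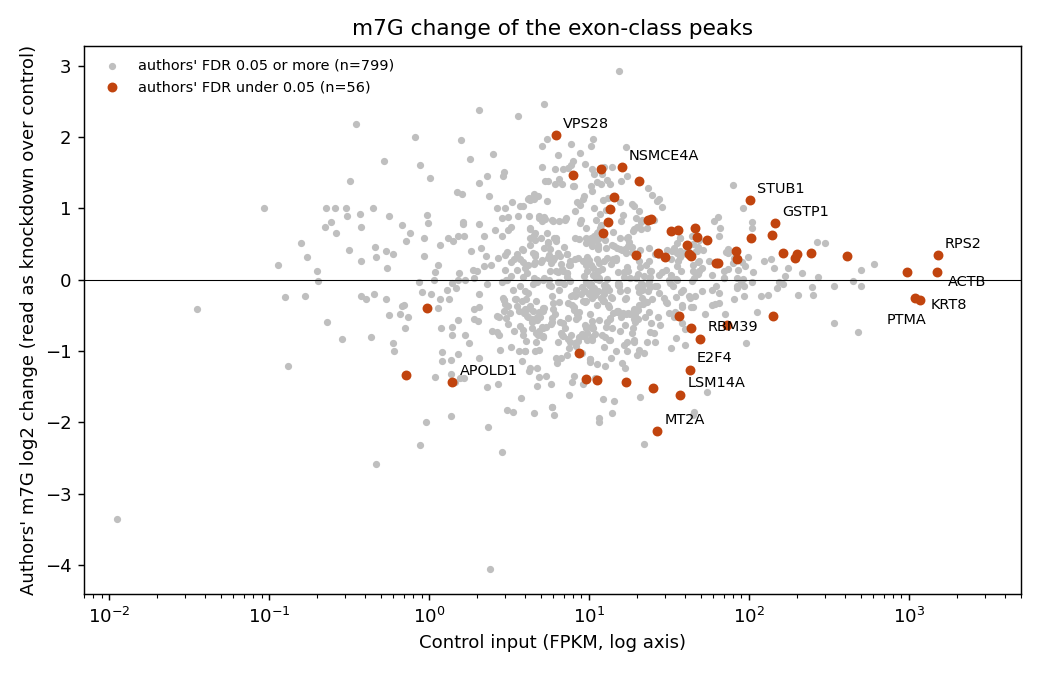
Each point is an exon-class peak, with control input (FPKM, log axis) against the authors' m7G log2 change, read as knockdown over control; coloured points have an FDR under 0.05. The 56 called peaks include small changes at over 1000 FPKM, such as RPS2 at 0.34, and larger ones at lower input, such as MT2A at -2.12.

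Several of the largest called rises were at strongly enriched start peaks. STUB1, which encodes the chaperone-linked ubiquitin ligase CHIP, had a start peak (chr16:680343-680729, 24.3-fold) and, per the authors' deposited table, a change of 1.12 (FDR 2.45e-09). Its input was 102 FPKM in the control and 97.1 FPKM in the knockdown. CNOT3, a subunit of the CCR4-NOT deadenylase that shortens poly(A) tails, changed by 0.84 (FDR 7.24e-06) in the authors' deposited table, at 23.5 and 21 FPKM. POLR3E changed by 1.00 (FDR 0.0224) and NSMCE4A, of the SMC5/6 DNA repair complex, by 1.58 (FDR 0.00912), per the authors' deposited table. These 4 peaks lay at the gene start and were at least 24.3-fold enriched. The counting intervals of the STUB1 and POLR3E inputs included no difference, while that of NSMCE4A was 1.13-fold lower in the knockdown (1.01 to 1.27) and that of CNOT3 1.12-fold lower (1.04 to 1.20).

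The other large rises were at weaker downstream peaks. VPS28, of the endosomal sorting complex, changed by 2.03 (FDR 0.0105) at a 1.66-fold peak, per the authors' deposited table. RHPN2 changed by 1.56 at a 1.86-fold peak, and RABGGTB, a subunit of the Rab prenylating enzyme whose gene also hosts small nucleolar RNAs (snoRNAs), by 1.39 at a 1.84-fold peak, in the authors' deposited table. AEN, a nuclease induced by p53, changed by 1.16 at a 1.78-fold peak and HMG20B, a subunit of a histone demethylase complex, by 0.85 at a 1.78-fold peak, again in the authors' deposited table. ZNF232, a zinc finger gene, differed from these in a 28.8-fold peak, with a change of 1.47 (FDR 0.0389) in the authors' deposited table, 10952 nt from the outermost start. It began -286 nt, that is upstream, from the nearest listed start of the gene. Among called members chosen after their values were seen, the detoxifying enzyme GSTP1 changed by 0.79 (FDR 3.24e-06) at 146 and 120 FPKM and the galectin LGALS3 by 0.63 (FDR 2.69e-06) at 139 and 162 FPKM, per the authors' deposited table. In the authors' deposited table, 26 members over 1000 nt downstream (7.98% of 326) were called, 18 higher and 8 lower. Near the start, 22 of 403 (5.46%) were called, 15 higher and 7 lower, in the authors' deposited table. In the same deposited table, the downstream and near-start called shares were 11.3% and 6.55% for coding-sequence and 2.49% and 3.81% for 5′ UTR peaks.

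MT2A had the largest called fall. It encodes a metallothionein, a small cysteine-rich protein that binds zinc and other metals, and its m7G change was -2.12 (FDR 7.94e-11) in the authors' deposited table (peak at chr16:56608966-56609202). Its input was 26.9 FPKM in the control and 43.3 FPKM in the knockdown, 1.61-fold higher (1.42 to 1.84). Input and m7G thus differed in direction as read here, and would share it if the change is control over knockdown. The remaining metallothioneins with a peak, MT1X and MT1F, were also members. Their inputs were 2.21 and 1.07 FPKM for MT1X and 1.52 and 0.865 FPKM for MT1F in control and knockdown, and the authors' deposited table gave m7G changes of 0.19 and 0.62, each with an FDR of 0.676. Metallothionein genes are close copies, so reads may be shared among them.

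The other large called falls were at downstream peaks and at start peaks. LSM14A, a decapping-associated protein of cytoplasmic P-bodies, changed by -1.61 (FDR 0.00513) at a 1.89-fold peak 55220 nt from the start, in the authors' deposited table. H2AFY, which encodes the histone variant macroH2A, changed by -1.52 (FDR 0.0245) at a 1.74-fold peak, per the authors' deposited table. E2F4, a transcription factor that represses cell-cycle genes, changed by -1.26 (FDR 0.00871) at a 19.3-fold start peak, and RBM39, a splicing coactivator, by -0.82 (FDR 0.000676) at a 60.7-fold start peak, both in the authors' deposited table. The inputs of E2F4 were 42.7 and 43.9 FPKM in control and knockdown and those of RBM39 49.6 and 46.3 FPKM, so the listed m7G falls did not go with an input change of like size. The RNA helicase DDX10, DAZAP2, MIEN1 and GGNBP2 changed by between -1.43 and -1.03 in the authors' deposited table.

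One of the falls is shared by a pair of members. The peak listed for APOLD1, an endothelial early-response gene, changed by -1.44 (FDR 0.000646) in the authors' deposited table but begins 87384 nt from the RefSeq start of that gene, at the start of the RNA helicase gene DDX47. The DDX47 peak shares 209 bases with it on the same strand, with a change of -1.34 (FDR 0.00617) in the authors' deposited table and 0.721 FPKM in the control. Which gene gave these reads cannot be told apart, and the pair should be read as 1 region. Over all members, 16 (1.87%) shared bases with the peak of another gene on the same strand, compared with 1.48% of 5′ UTR and 1.48% of coding-sequence peaks.

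Ribosomal protein genes were the largest listed group in the exon class. Cytosolic ribosomal proteins form the ribosome's protein part, and 33 of the 53 such genes with a peak (62.3%) had an exon-class peak, against 10.0% of all peaks in protein-coding genes. Only 7 had a 5′ UTR peak, 8 a coding-sequence peak and 5 a 3′ UTR peak. Their control input had a median of 105 FPKM, from 7.33 FPKM for RPL17 to 1519 FPKM for RPS2. Their fold enrichment had a median of 9.43, reaching 47.2 for RPS3A, while the 7 with a 5′ UTR peak had 19.9. The 17 exon peaks near the start had a median of 9.75 and the 10 downstream ones 3.51, the same order as in the class as a whole.

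The strongest ribosomal peaks lay at the start. RPS3A (47.2-fold, 342 FPKM in the control and 319 FPKM in the knockdown), RPL27 (39.6-fold, 270.3 and 260.2 FPKM), RPL38 (39.0-fold, 85.1 and 80.9 FPKM) and RPL36 (34.8-fold, 91.4 and 88.0 FPKM) began within 250 nt of it. RPL28, RPL13A and RPS16, which are among the 10 with downstream peaks (median 3.51), were at 1.46- to 1.72-fold. The peak of RPL39 is also a downstream one, 1443 nt from the start, but was 14.7-fold enriched. That peak overlaps the RefSeq location of the small nucleolar RNA gene SNORA69, with strand not compared. The part of SNORA69 in that value was not tested.

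Of the 33, the authors' deposited table called 6 higher and 1 lower in m7G, a share of 21.2% against 5.25% of all peaks and 15.8% of exon peaks in the highest input bin. Of the 33, 32 belong to that bin. RPS2 changed by 0.34 (FDR 2.51e-29), RPS16 by 0.36, RPL35 by 0.33 and RPL28 by 0.33 in the authors' deposited table. RPS25 was the one that fell, by 0.51 on the log2 scale (FDR 0.00832) in the authors' deposited table. The median change over the 33 was 0.05, so the called rises were small and most members were not called. In the input, 10 were above 0 and 23 below 0 on the log2(FPKM + 1) scale with a median of -0.06, against a median of 0.01 for all peaks, and none passed 2-fold.

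**Figure D5:**
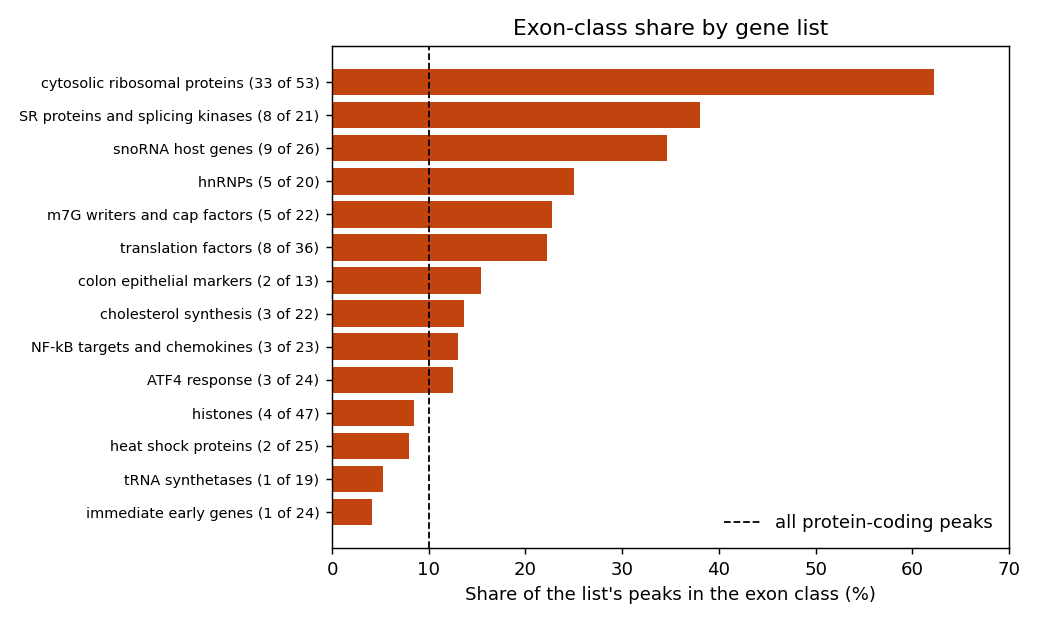
Share of each gene list's peaks that fell in the exon class (percent), with the number of exon peaks of all peaks in parentheses, for lists with at least 10 peaks. Cytosolic ribosomal proteins stand at 62.3%, and the dashed line marks the 10.0% of all protein-coding peaks.

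Splicing regulators followed. SR proteins, which bind exons and promote splicing, and the kinases that phosphorylate them had exon-class peaks in 8 of 21 genes (38.1%). SRSF4 rose by 0.37 (FDR 0.000145) and SRSF11 fell by 0.68 on the log2 scale (FDR 0.0107) in the authors' deposited table, and the other 6 were not called. SRSF5, at 59.1 and 58.0 FPKM in control and knockdown, had a 28.7-fold start peak, and SRSF6, at 84.3 and 81.5 FPKM, a 2.86-fold one. The hnRNPs, which package nascent RNA, had exon peaks in 5 of 20 genes (25%), 4 of them downstream with a list median of 1.70-fold. HNRNPA2B1, at 203 and 192 FPKM, was the one with a stronger peak, at 10.6-fold, and no hnRNP was called.

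Among snoRNA host genes, 9 of 26 (34.6%) had exon-class peaks, but 5 of these, RPL13A, RPS12 and RPL3 among them, are ribosomal protein genes. The 4 others were CHD8, EIF4G2, FBL and RABGGTB. FBL, which encodes the rRNA methyltransferase fibrillarin, stood at 154 and 157 FPKM with a 10.8-fold peak. The m7G writers and cap factors had 5 of 22 (22.7%), none of them called. They were the decapping scaffold EDC4, the cap-binding NCBP2 and EIF4E, the decapping exonuclease DXO and WDR4. DXO stood at 3.81 FPKM in the control and 6.27 FPKM in the knockdown, 1.64-fold higher (1.28 to 2.12). Translation factors had 8 of 36 (22.2%), with EEF1D, an elongation factor subunit, called at 0.24 (FDR 0.0182) in the authors' deposited table.

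Histone genes had 4 of 47 peaks (8.51%) in the exon class, near the 10.0% of all protein-coding peaks, and 35 in the coding sequence. H2AFZ, the variant H2A.Z, rose by 0.59 (FDR 0.00148) and the replication-dependent HIST1H3J fell by 0.63 on the log2 scale (FDR 0.00759) in the authors' deposited table, beside H2AFY above. H3F3B, the variant H3.3, had a change of -1.86 in the authors' deposited table that was not called (FDR 0.104). Transfer RNA synthetases had 1 of 19 (CARS), immediate early genes 1 of 24 (IER5) and heat shock proteins 2 of 25. HSP90B1, the chaperone of the endoplasmic reticulum, was called at 0.30 (FDR 4.90e-08) in the authors' deposited table, at 194 and 163 FPKM. KRT8 and KRT18 were the colon epithelial members, and the authors' deposited table called them at -0.29 (FDR 0.0316) and 0.11 (FDR 0.0214).

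Few members changed in the input, as in the other protein-coding classes. On the log2(FPKM + 1) scale, which understates the change of low genes, 1 of 794 members with a mean of at least 1 FPKM was at least 2-fold higher in the knockdown and 2 were at least 2-fold lower. Of 8400 genes of any biotype with a peak, 0.429% were higher and 0.560% lower (0.988% in either direction). In either direction the share was 0.378% of members and 0.493% of all protein-coding genes with a peak. It was 0.437% for 5′ UTR and 0.659% for coding sequence. MFSD6L, a transporter-like protein, stood at 0.262 FPKM in the control and 1.85 FPKM in the knockdown, 7.04-fold higher (3.01 to 20.2). LCN2, which encodes the iron-scavenging lipocalin of inflamed epithelium, stood at 163 and 39.2 FPKM, 4.16-fold lower (3.83 to 4.52). NECAP2, an adaptor of clathrin vesicles, stood at 6.90 and 2.68 FPKM, 2.58-fold lower (2.15 to 3.10). LCN2 was the sole one of these 3 that also had a called m7G change, of 0.38 (FDR 0.00676) in the authors' deposited table. That is opposite to its input as read here, and would be in the same direction if the change is control over knockdown.

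The next members in each direction stayed under 2-fold on that scale, though some passed it as a plain ratio of FPKM. SMIM29 stood at 1.46 and 3.70 FPKM in control and knockdown (plain ratio 2.54). The aldehyde dehydrogenase ALDH3A1 stood at 16.8 and 32.7 FPKM (1.94), and the receptor EPHB6 at 6.48 and 13.1 FPKM (2.01). The calcium-binding S100A4 stood at 5.79 and 11.2 FPKM, 1.94-fold higher (1.25 to 3.08). The lysosomal sialidase NEU1 stood at 6.01 and 2.60 FPKM (2.31-fold lower) and POLR3GL at 4.73 and 2.01 FPKM (2.36-fold lower). BLOC1S4 of lysosome-related organelle biogenesis stood at 15.7 and 8.83 FPKM (1.78-fold lower). None of these 7 had a called m7G change.

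In the co-culture libraries, 2-fold differences were less frequent among members than among all genes, as they were among genes with a peak in general. Of 775 members with a mean of at least 1 FPKM there, 51 (6.58%) were at least 2-fold higher in S-CAFs-w13 and 34 (4.39%) at least 2-fold lower, against 9.08% and 7.92% of 14739 genes (17.0% in either direction). The authors' own scaling, which shifts every log2 ratio by -0.14, gave 35 higher and 53 lower, so the excess of higher members depends on that choice. Without that shift, genes with a 5′ UTR peak had 6.45% higher and 6.18% lower, and those with a coding-sequence peak 5.47% and 7.61%. All 8325 genes with a peak and a mean of at least 1 FPKM had 6.22% higher and 6.64% lower. The 12 colon epithelial markers summed to 2144 FPKM for DLD1-W13CM and to 3317 FPKM for S-CAFs-w13. Most of these sums came from KRT8 (754 and 1051 FPKM) and KRT18 (892 and 1593 FPKM), which are members. The 6 fibroblast markers listed of 13 summed to 10.3 and 12.3 FPKM. The part of such markers in the member counts was not tested.

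The ribosomal protein members were mostly a little higher beside S-CAFs, with 30 of 33 above 0 and a median log2 ratio of 0.32, against 0.02 for all genes, and none past 2-fold. With the authors' shift of -0.14 added, that median stays above 0. MT2A had 40.4 FPKM in DLD1-W13CM against 206 FPKM in S-CAFs-w13, a ratio of 5.09 (4.52 to 5.75), and MT1X at 1.6 and 12.5 FPKM, a ratio of 7.82 (2.36 to 40.7). SRSF6 stood at 63.0 and 17.9 FPKM, 3.53-fold lower (3.07 to 4.07). H2AFZ stood at 121 and 46.9 FPKM. Fewer cells of a kind and less RNA per cell cannot be told apart in such bulk libraries.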

How the data were processed

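DLD1 libraries, 1 per group, were compared from the deposited tables. The expression values are FPKM computed by the authors, per the file headers of the co-culture table and inferred from the values for the input columns of the peak table. The authors deposited for each peak a fold enrichment (ratio; libraries not stated), an m7G log2 change, and the log10 of a p-value and of an FDR for that change, per the file headers. Tools named without roles in the submitters' processing notes are HISAT2 2.1.0, SAMtools 1.10, HOMER 4.10.4, cutadapt 2.5, DESeq2 and featureCounts 1.6.3. The peak caller was not given in the sources used here, and IP libraries entered only through the authors' peak values, so their depth is unknown.

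From these files the following was computed in Python 3.11.15 with pandas 2.3.3, NumPy 2.4.6 and SciPy 1.17.1, and figures in matplotlib 3.10.9. Peak positions came from the thick start and end with blocks, since the listed start and end are a single point, which lay within 1 nt of the middle of the longest block for 778 of 855 members. Positions were read as GRCh38, which the submitters' processing notes name, and set against RefSeq starts (GRCh38.p14) for 854 members. C17orf49 had no match. Classes are described by medians, quartiles and counts with no test, since peaks are not replicates. Order-statistic intervals of medians describe the listed peaks only. Input and co-culture ratios are log2((FPKM + 1)/(FPKM + 1)) for a mean of at least 1 FPKM; printed folds divide one FPKM by the other. Whole reads, the smallest the ratio allows (relative tolerance 1e-12), were found for 9348 of 9348 genes of the peak table and 20805 of 20806 of the co-culture table, with a depth ratio of 1.11 (knockdown over control) and 0.981 (S-CAFs-w13 over DLD1-W13CM). They give exact (Clopper-Pearson) 95% counting intervals, which are too wide where the true reads are a multiple of the smallest. PCR copies are not independent molecules. Scripts were tested on simulated data.

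The members, the 16 gene lists and the measures were chosen with earlier results of these data known. Named members were the 10 largest called m7G rises and falls, the 10 highest enrichments, the 10 highest inputs, the 5 widest and narrowest peaks (ties by symbol), the 5 highest and lowest input ratios, up to 6 of each list by input (1 where the list had 1 exon peak), and METTL1 and WDR4. DDX47, RPL27, RPL38, RPL28, RPS16, RPS25, RPL17, RPL39 and the co-culture examples were singled out after their values were seen. A few members that the rule names are not reported here. Alternatives are given in the closing section.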

Additional observations from a re-analysis of the deposited data

How the results depend on the processing

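Over 15 values, 63 alternatives were computed, of which 40 stayed close to the reported value, 20 moved and 3 reversed. The ratio of exon to 5′ UTR median input, 1.46, was 1.20 at a mean of at least 5 FPKM. The ratio of median genomic span, 0.465 to 5′ UTR and 0.461 to coding sequence, was 0.9 and 1 when blocks were summed. The ratio of median enrichment to 5′ UTR, 0.633, was 0.538 at 5 FPKM or more and, by settings added after seeing the data, 0.912 within 250 nt of the start and 0.282 over 1000 nt downstream. The ratio to coding sequence, 0.95, turned to 1.12 over 1000 nt downstream and to 1.05 as a mean over 4 bins of width, so that no order of these classes holds. The called m7G changes, 38 higher and 18 lower, were 22 and 9 at an FDR under 0.01, 99 and 72 at a p-value under 0.05 (16.1% of all peaks), and 7 and 10 with at least 2-fold change as well. Read as control over knockdown they were 18 and 38, with a median change of -0.0223. The input counts, 1 higher and 2 lower, were 4 and 4 with a pseudocount of 0.1 FPKM, and 0 and 1 at 5 FPKM or more. Of the co-culture counts, the 34 lower were 59 with a pseudocount of 0.1 FPKM and 53 under the authors' scaling. Why these values moved was not tested beyond what each setting leaves out. No paired analysis was possible because each group held 1 library. The main limits are the absence of replicates, the unstated peak caller and class definitions, and the unknown depth of the IP libraries.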

Other observations

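The members with the largest co-culture differences were spread over start and downstream peaks. SAT1, the rate-limiting enzyme of polyamine breakdown, had 38.0 FPKM in DLD1-W13CM against 317 FPKM in S-CAFs-w13, a ratio of 8.35 (7.67 to 9.10). The glucose transporter SLC2A3 was 6.92-fold higher (5.94 to 8.11), at 4.84 and 33.5 FPKM. DDIT3, the stress-induced transcription factor CHOP, was 5.82-fold higher (4.45 to 7.71), at 7.98 and 46.4 FPKM. MYEOV stood at 8.18 and 46.5 FPKM, the clock-controlled DBP at 1.21 and 9.81 FPKM, and OSBPL7, an oxysterol-binding family member, at 0.480 and 7.91 FPKM. Among the lowest were the following, picked after their values were seen. ZWINT, which acts at the kinetochore, had 19.5 and 3.11 FPKM, 6.27-fold less (4.02 to 10.2). MCM5, a subunit of the replicative helicase, was 3.34-fold lower (2.89 to 3.87), at 17.8 and 5.33 FPKM. TUBA1B, an alpha-tubulin, was 3.08-fold lower (2.95 to 3.21), at 393 and 128 FPKM. KRTAP3-1 had 2.18 FPKM in DLD1-W13CM and is listed at 0 in S-CAFs-w13.

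A further pair of listed genes shared a called change. RABL6 and the processed transcript AL355987.4 share 384 bases of peak on the same strand, with m7G changes of 0.34 and 0.35 in the authors' deposited table. The 2 called members with a mean input under 1 FPKM were DDX47 and C11orf98, the latter at 0.971 FPKM in the control and 0.194 FPKM in the knockdown with a change of -0.39 (FDR 0.0224) in the authors' deposited table.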
